A study of Caenorhabditis elegans with 58 samples.

Results

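Worms that carried the AEDH mutation in both miRNA Argonautes, ALG-1 and ALG-2, and also lacked EBAX-1 were compared with worms that lacked EBAX-1 alone. All libraries of these 2 genotypes in experiment 2 were taken, 4 each, which makes 8 of the 58 libraries of the series. Every annotated miRNA arm and every star-to-guide ratio per hairpin was examined. The series sequenced small RNA of the nematode Caenorhabditis elegans from 15 groups, and its experiment 2 holds 24 libraries of young adult hermaphrodites in 6 genotypes. They were grown for 44 h at 25 °C from synchronized first-stage larvae, per the labels' protocols.

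The genotype called ebax-1 null here is strain CZ9907 with the allele ebax-1(tm2321). Its AEDH counterpart, called ebax-1 null double AEDH, is strain MCJ354, which carries alg-1(cdb153) and alg-2(cdb155) beside ebax-1(tm2321). Both groups thus lack EBAX-1. Wild type is strain N2, and double AEDH with EBAX-1 intact is strain MCJ275. Another pair, strains MCJ350 and MCJ352, carries a deletion of the mir-243 binding site in the transcript Y47H10A.5, without and with double AEDH. Each genotype is a single strain, and the RNA came from whole animals. Since nothing in the labels states that replicate libraries were grown as independent cultures, the p-values below reflect variation among these libraries, part of which may be technical.

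A miRNA is cut from a hairpin as a duplex, of which the Argonaute keeps the guide strand and discards the other, called the star strand. ALG-1 and ALG-2 can cut an extensively paired RNA through a catalytic tetrad, DEDH, and the AEDH change removes that activity. Some extensively paired targets instead trigger loss of the miRNA itself, target-directed miRNA degradation, which needs the ubiquitin ligase adaptor EBAX-1, the worm counterpart of mammalian ZSWIM8. In the ebax-1 null background the effect of AEDH is therefore read without that decay route.

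The 8 libraries held 9451754 to 12605854 counts on miRNA arms, and 238 to 251 of 276 annotated arms were detected. Levels are given as CPM, an arm's counts relative to the TMM-scaled library total, and 3 counts, taken as the floor, equal 0.238 to 0.317 CPM. Between 21.8 and 26.3% of reads fell outside annotated features. Spike-in RNA amounted to 10.7 counts per 100 miRNA counts in ebax-1 null replicate 3, 5.97 to 6.44 in the other ebax-1 null libraries and 6.79 to 8.97 in the double AEDH ones. The floors cover counting error only, because the libraries were amplified without molecular identifiers. Of the arms, 226 were tested, and the 50 not tested had a mean of at most 6.25 counts in either group, 9 of them with no count in any of the 8 libraries. Of 138 hairpins, 92 had enough counts in both arms for a ratio.

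Replicates 3 and 4 of ebax-1 null stood apart from the other libraries. The 8 guide arms of the mir-35 family, which is abundant in embryos and marks the eggs that hermaphrodites carry, summed to 35285, 31807, 110442 and 98272 CPM in ebax-1 null replicates 1 to 4. They summed to 55020, 54129, 38743 and 44396 CPM in the double AEDH libraries. By this sum the double AEDH libraries lay between the low replicates 1 and 2 and the high replicates 3 and 4 of ebax-1 null. Of the 8 guides, mir-42_3p went the other way, at 1998, 2009, 1070 and 1649 CPM in ebax-1 null replicates 1 to 4. In whole animals, fewer embryos, less of these miRNAs per embryo and less of them outside embryos cannot be told apart. Whether the family tracks carried eggs in animals without EBAX-1 was not tested. The muscle marker mir-1_3p stood at 94043 ± 24251 CPM in ebax-1 null and 98642 ± 10988 CPM with double AEDH (SD, n = 4), and the neuronal marker mir-124_3p at 3.49 ± 1.31 and 3.80 ± 1.20 CPM. Calls that change without ebax-1 null replicates 3 and 4 are given with and without them. The part of embryo content in any result was not tested.

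With AEDH in the ebax-1 null background, most of the arms that rose were star arms. Of the 9 that fell 6 were guides, near the share of guides among tested arms, 131 of 226. By edgeR's quasi-likelihood test with Benjamini-Hochberg adjustment, 25 of the 226 arms changed (11.1%), 16 upward (7.08%) and 9 downward (3.98%). Of 95 star arms 14 rose and 3 fell, with a median log2 fold change of 0.10, and of 131 guide arms 2 rose and 6 fell, with a median of -0.01. The 14 include mir-1829b_3p* and mir-1829c_3p*, described below, which held more counts than their annotated guides and are not separate evidence. The median of all arms was 0.01. The 4 libraries of one group lay wholly above or below the 4 of the other in 18 of the 25 changed arms and in 25 of all 226 arms (11.1%). The 20 most abundant arms, which held 79.6% of the CPM in ebax-1 null, had log2 fold changes from -0.53 to 0.29, and 0 of them passed the test, among 50 arms at an unadjusted p under 0.05 and 34 calls in all by DESeq2.

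The count and the split of calls depended on the scaling and on single libraries. Scaled to total miRNA counts, 13 arms rose and 12 fell. Scaled to spike-ins, which moved the median of all arms by -0.22, 2 rose, mir-237_3p* and mir-63_5p*, and 9 fell. The 14 star arms described next kept a fold change above 0 under every scaling. Without ebax-1 null replicates 3 and 4, a choice made after seeing the data, 29 arms changed, 18 up and 11 down, and 17 of the 25 were among them. The count was 16, 15 and 16 without double AEDH replicate 1, 2 or 3.

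**Figure D1:**
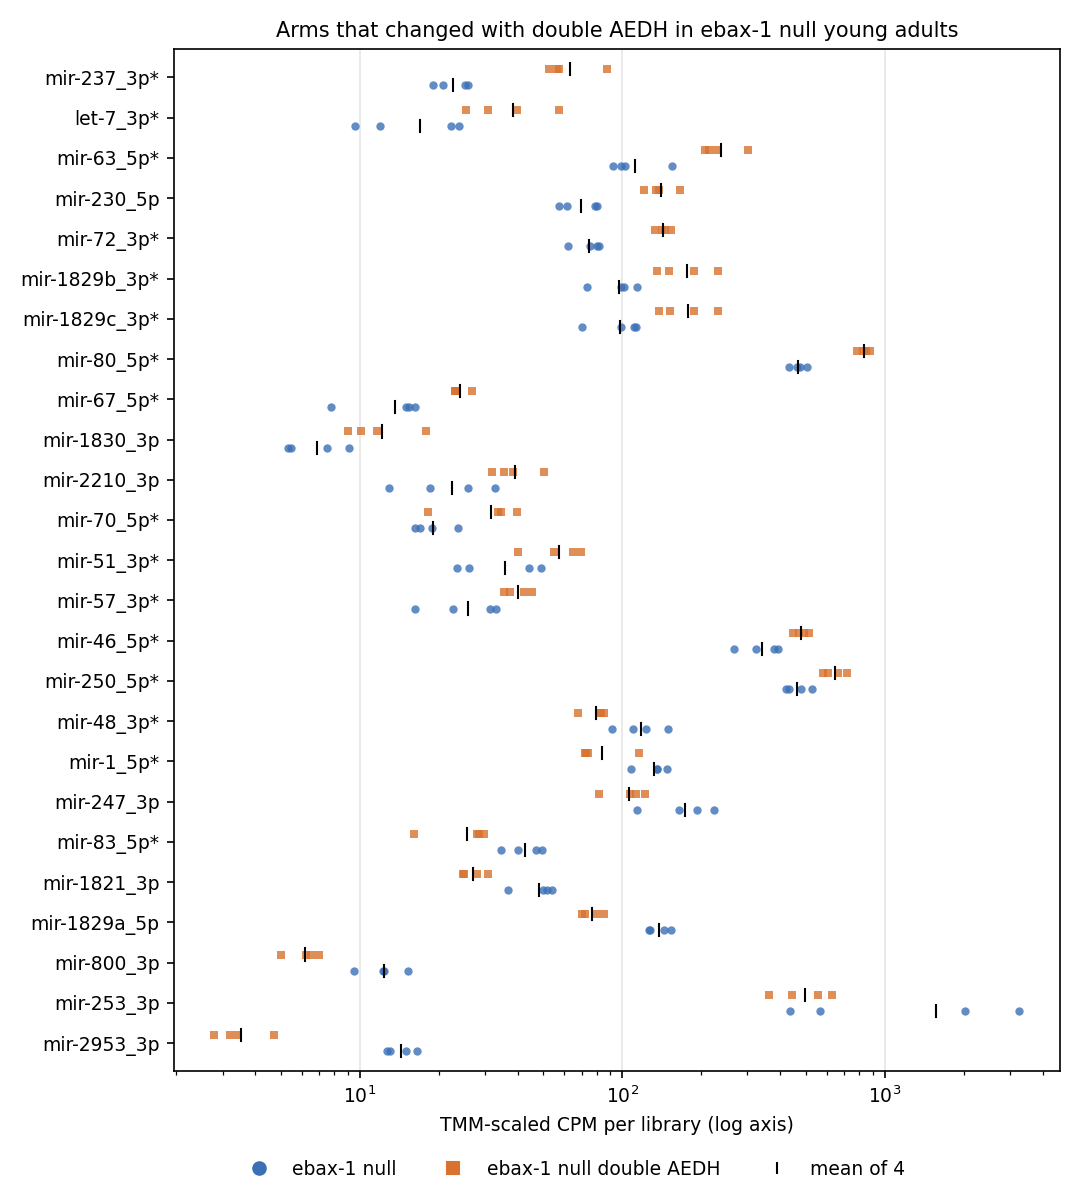
CPM of the 25 changed arms in each library, on a log axis, with circles for ebax-1 null, squares for ebax-1 null double AEDH and black bars for the means of 4. The arms are ordered by fold change, and mir-253_3p is the arm whose ebax-1 null libraries lie farthest apart, from 435 to 3261 CPM.

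The star arms that rose with the lowest adjusted p were those of mir-80, mir-230, mir-237, mir-72 and mir-63, of which those of mir-80, mir-230 and mir-72 lost their call with spike-in scaling. mir-80_5p*, the star of an abundant member of the mir-58 family, stood at 505, 475, 462 and 432 CPM in ebax-1 null and at 826, 784, 847 and 878 CPM with double AEDH. All 4 double AEDH libraries were above all 4 others, with little spread in either group. Its log2 fold change was 0.83 ± 0.11 (SE; edgeR adjusted p = 5.99e-06), and it had the most CPM of the star arms that rose.

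The 5′ arm of mir-230, mir-230_5p, has the fewer reads of its hairpin and was taken as its star, and it rose from 80.4, 78.8, 61.8 and 57.6 CPM to 135, 138, 121 and 166 CPM. The groups were again fully separate (log2 fold change 1.01 ± 0.13, edgeR adjusted p = 5.99e-06). Its partner mir-230_3p, the guide, stood at 3438, 3254, 3108 and 2385 CPM and at 2086, 1821, 1908 and 2799 CPM. Double AEDH replicate 4 was above ebax-1 null replicate 4, and the guide's difference of -0.50 on the log2 scale missed the threshold (edgeR adjusted p = 0.0569).

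The largest rise among star arms was that of mir-237_3p*, from a hairpin of the lin-4 family, whose founder times larval development. It stood at 25.8, 19.0, 25.3 and 20.8 CPM in ebax-1 null and at 56.4, 57.2, 52.5 and 87.5 CPM with double AEDH. Replicate 4 of double AEDH was the highest library, and the other 3 were still at least double the ebax-1 null ones (log2 fold change 1.48 ± 0.25, edgeR adjusted p = 0.000203). Without that replicate the log2 fold change was 1.25. Its guide arm, mir-237, did not pass the test at -0.23.

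mir-72_3p* rose from 80.1, 75.5, 62.1 and 81.8 CPM to 146, 133, 153 and 141 CPM, by 0.94 ± 0.16 on the log2 scale (edgeR adjusted p = 0.000203). mir-63_5p* rose from 99.3, 92.0, 155 and 103 CPM to 207, 215, 229.5 and 302 CPM (1.08 ± 0.23, edgeR adjusted p = 0.00212). Neither arm's groups overlapped. The guides mir-72_5p and mir-63_3p did not pass the test.

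Star arms of 2 mir-1829 hairpins also rose. mir-1829b_3p* stood at 102, 99.3, 114 and 73.2 CPM and at 136, 151, 187 and 231 CPM with double AEDH. Its groups did not overlap (log2 fold change 0.86 ± 0.20, edgeR adjusted p = 0.00573). mir-1829c_3p* gave nearly the same value in each library, with a log2 fold change of 0.85. The ratio of the 2 arms' counts stayed between 0.919 and 1.04 in all 24 libraries of the experiment, so reads of one locus may have been counted at the other and the 2 arms are not separate evidence. Although annotated as star, mir-1829b_3p* held 92.5 ± 2.56% of its hairpin's counts in ebax-1 null. mir-1829c_3p* likewise exceeded its annotated guide there, at 98.3 ± 19.6 against 31.8 ± 6.63 CPM. The hairpins lie on the X chromosome in the ce11 build, mir-1829b at 14977119 to 14977178 in an intron of F20D1.3 and mir-1829c at 15236364 to 15236423 in an intron of piki-1.

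The rise of let-7_3p*, the star of the miRNA that drives the larva-to-adult switch, was less even. Its CPM were 22.3, 23.9, 9.57 and 11.9 in ebax-1 null and 30.9, 25.4, 39.9 and 57.5 with double AEDH. The groups did not overlap, but ebax-1 null replicates 3 and 4 were the lowest. The log2 fold change of 1.18 ± 0.30 (edgeR adjusted p = 0.0111) became 1.03 without ebax-1 null replicate 4 (adjusted p = 0.0556) and 0.75 without replicates 3 and 4 (adjusted p = 0.153). The guide let-7_5p stood at 11376 ± 301 and 13561 ± 2628 CPM.

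The other 6 star arms that rose were mir-67_5p*, mir-70_5p*, mir-51_3p*, mir-57_3p*, mir-46_5p* and mir-250_5p*, with log2 fold changes of 0.47 to 0.83. None of the 6 kept its call when each library was left out in turn. mir-46_5p* stood at 392, 379, 267 and 322 CPM against 517, 492, 469 and 445 CPM, and mir-250_5p* at 479, 432, 529 and 421 CPM against 666, 610, 584 and 720 CPM. Both were fully separate, with log2 fold changes of 0.50 and 0.47 (edgeR adjusted p = 0.0436 and 0.0188). mir-57_3p*, from a relative of the miR-10 family that acts in posterior cell fate, moved from 31.4, 33.0, 22.6 and 16.3 CPM to 37.3, 45.1, 35.4 and 42.2 CPM.

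The calls of these 6 were lost as follows. mir-67_5p*, at 0.83, lost its call without any 1 of the 8 libraries, with adjusted p from 0.0523 to 0.153. mir-70_5p*, at 0.74, lost it without ebax-1 null replicate 3 or 4 or double AEDH replicate 1, 2 or 3 (highest adjusted p 0.116), and mir-51_3p*, at 0.69, without ebax-1 null replicate 1 or 2 or double AEDH replicate 1, 2 or 3 (highest 0.147). mir-57_3p*, at 0.63, lost it without ebax-1 null replicate 3 or 4 or double AEDH replicate 2 (highest 0.0965). mir-46_5p* lost it without ebax-1 null replicate 2, 3 or 4 or double AEDH replicate 1, 2 or 3 (highest 0.189), and mir-250_5p* without ebax-1 null replicate 2 or 4 or double AEDH replicate 1, 2 or 4 (highest 0.101). Their log2 fold changes stayed above 0 in each of these fits. Without ebax-1 null replicates 3 and 4 together, mir-51_3p*, at 1.22, and mir-250_5p* were called. The other 4, at 0.33 to 0.64, were not.

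The 14 star arms that rose came in equal number from the 5′ and the 3′ side of the hairpin, 7 each, and 60 of all 95 tested star arms were 5′ arms. Of the 14, 6 lie on the X chromosome (42.9%), against 30.5% of tested star arms, and 4 lie in introns (28.6%), against 42.1%. In the group where each was higher they had means of 24.1 to 834 CPM. mir-1829b_3p* and mir-1829c_3p*, which are not separate evidence, both count among the 3′ arms, those on X and those in introns. Departures from the shares of all tested star arms were not tested.

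Star arms of 3 hairpins fell. mir-1_5p*, whose guide is the main muscle miRNA, stood at 148, 136, 135 and 108 CPM and at 72.7, 73.8, 72.0 and 116 CPM. The fourth double AEDH library lay within the ebax-1 null range, and the log2 fold change of -0.66 ± 0.16 (edgeR adjusted p = 0.0105) became -0.89 without it. The call was lost without ebax-1 null replicate 1 or without double AEDH replicate 1, 2 or 3, with adjusted p up to 0.0651.

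mir-48_3p*, of the let-7 family, fell from 149, 123, 91.3 and 109.5 CPM to 85.1, 81.4, 67.6 and 83.1 CPM (-0.58 ± 0.15, edgeR adjusted p = 0.0178). Its groups were separate, yet the call was lost without ebax-1 null replicate 1 (adjusted p = 0.0991) or double AEDH replicate 3. mir-83_5p*, the star of a miRNA that acts in migration of the gonad's distal tip cells, fell from 34.4, 47.1, 49.4 and 40.2 CPM to 29.8, 28.1, 28.5 and 16.0 CPM (-0.74 ± 0.20, edgeR adjusted p = 0.0178). Double AEDH replicate 4 was the lowest, and every double AEDH library lay below every ebax-1 null one. Its call was lost without ebax-1 null replicates 3 and 4 (-0.66, edgeR adjusted p = 0.0819) and with spike-in scaling. The guides of these hairpins, mir-1_3p, mir-48_5p and mir-83_3p, did not pass the test.

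Among guide arms 6 fell, led by mir-2953_3p, which lies on chromosome II at 6747182 to 6747242 in an intron of F41G3.5. It stood at 15.0, 13.1, 16.6 and 12.7 CPM in ebax-1 null and at 3.21, 2.79, 4.71 and 3.43 CPM with double AEDH. The groups were far apart, and the log2 fold change of -2.02 ± 0.26 (edgeR adjusted p = 5.99e-06) was between -2.21 and -1.94 when each library was left out in turn.

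mir-1829a_5p fell from 126, 128, 154 and 145 CPM to 72.2, 70.0, 79.5 and 85.0 CPM (-0.85 ± 0.15, edgeR adjusted p = 0.000203). mir-800_3p fell from 15.3, 9.52, 12.4 and 12.2 CPM to 6.53, 5.005, 7.02 and 6.24 CPM (-0.997 ± 0.20, edgeR adjusted p = 0.00154). Neither arm's groups overlapped, and both calls held with each library left out. mir-1821_3p moved from 51.6, 49.7, 53.9 and 36.9 CPM to 24.8, 24.9, 28.1 and 30.7 CPM (-0.83 ± 0.24, edgeR adjusted p = 0.0220), also separate. That call was lost without ebax-1 null replicate 1 or 2 or double AEDH replicate 1, 2 or 3, with adjusted p up to 0.0876. mir-247_3p moved from 192, 224, 114 and 165 CPM to 107, 112, 122 and 81.7 CPM (-0.71 ± 0.20, edgeR adjusted p = 0.0190). Its groups overlapped through ebax-1 null replicate 3, and the call was lost without ebax-1 null replicate 1 or 2 or double AEDH replicate 1, with adjusted p up to 0.0787.

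The sixth, mir-253_3p, rested on 2 libraries. It stood at 569, 435, 3261 and 2030 CPM in ebax-1 null and at 628, 442, 362 and 555 CPM with double AEDH. Replicates 3 and 4 of ebax-1 null, those with the high mir-35 family sum, were far above the other 6 libraries, which overlapped. The log2 fold change was -1.66 ± 0.43 (edgeR adjusted p = 0.0138). It was -1.07 without replicate 3 (edgeR adjusted p = 0.0876) and -0.00435 without replicates 3 and 4 (adjusted p = 0.996). Its hairpin lies on chromosome V at 5780532 to 5780596, in an intron of F44E7.5. The star arm mir-253_5p* did not pass the test, at 6.66 ± 3.03 and 8.21 ± 2.94 CPM.

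The 2 guide arms that rose were mir-1830_3p, from 5.33, 5.45, 9.13 and 7.53 CPM to 9.02, 10.1, 11.6 and 17.9 CPM, and mir-2210_3p, from 32.6, 25.9, 18.5 and 13.0 CPM to 38.5, 32.0, 35.4 and 50.4 CPM. Each pair of groups overlapped by a single library, and the log2 fold changes of 0.82 and 0.80 were near the threshold (edgeR adjusted p = 0.0410 and 0.0436). mir-1830_3p lost its call without ebax-1 null replicate 1, 2 or 4 or double AEDH replicate 2, 3 or 4 (adjusted p up to 0.211), and its log2 fold change was 0.54 without double AEDH replicate 4. mir-2210_3p lost it in 7 of 8 such fits (adjusted p up to 0.218, with ebax-1 null replicate 1 left out the exception) and stood at 0.43 without ebax-1 null replicates 3 and 4. The mir-2210 hairpin overlaps an exon of ZK593.2 and mir-1830 lies in an intron of paic-1.

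mir-243, whose guide pairs extensively with the transcript Y47H10A.5, lies on chromosome IV at 4450798 to 4450861 in an intron of R08C7.12. The guide mir-243_3p stood at 274, 287, 485 and 308 CPM in ebax-1 null and at 153, 148, 178 and 303 CPM with double AEDH. Double AEDH replicates 1 to 3 were below every ebax-1 null library, and replicate 4 was within the ebax-1 null range. The log2 fold change was -0.79, with a 95% interval of -1.38 to -0.20, and it missed the threshold (edgeR adjusted p = 0.0794).

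Without double AEDH replicate 4 the fall of mir-243_3p was -1.12 and was called (edgeR adjusted p = 0.0142), and without ebax-1 null replicates 3 and 4 it was -0.50 (adjusted p = 0.418). Among other scalings and tools it was called with total counts (edgeR adjusted p = 0.025), with spike-ins (0.0156) and by DESeq2 (0.0483), but not with DESeq2's size factors in edgeR (0.0819). The arm mir-243_5p stood at 5.98, 8.13, 5.79 and 7.86 CPM and at 7.36, 8.29, 8.72 and 6.24 CPM, with groups that overlapped (0.14, edgeR adjusted p = 0.886).

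The difference in mir-243_3p had the same sign with EBAX-1 present. In wild type the guide stood at 427 ± 139 CPM, and double AEDH there stood at 221 ± 66.0 CPM, -0.95 as a log2 fold change (edgeR adjusted p = 0.0395). The effect in ebax-1 null minus that in wild type was 0.16, with a 95% interval of -0.67 to 0.99 (edgeR adjusted p = 0.978). That interval includes both no difference and a difference as large as the whole fall in wild type. With the Y47H10A.5 site deleted the log2 fold change was -0.83 (edgeR adjusted p = 0.0985, fit without a replicate block). mir-243_3p stood there at 429, 313, 435 and 288 CPM, and at 216, 139, 303 and 168 CPM with double AEDH. It was lower with double AEDH at every replicate number. Replicate numbers were taken to pair the samples of those groups, which that p does not use, so its miss is not read as a weaker effect.

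**Figure D2:**
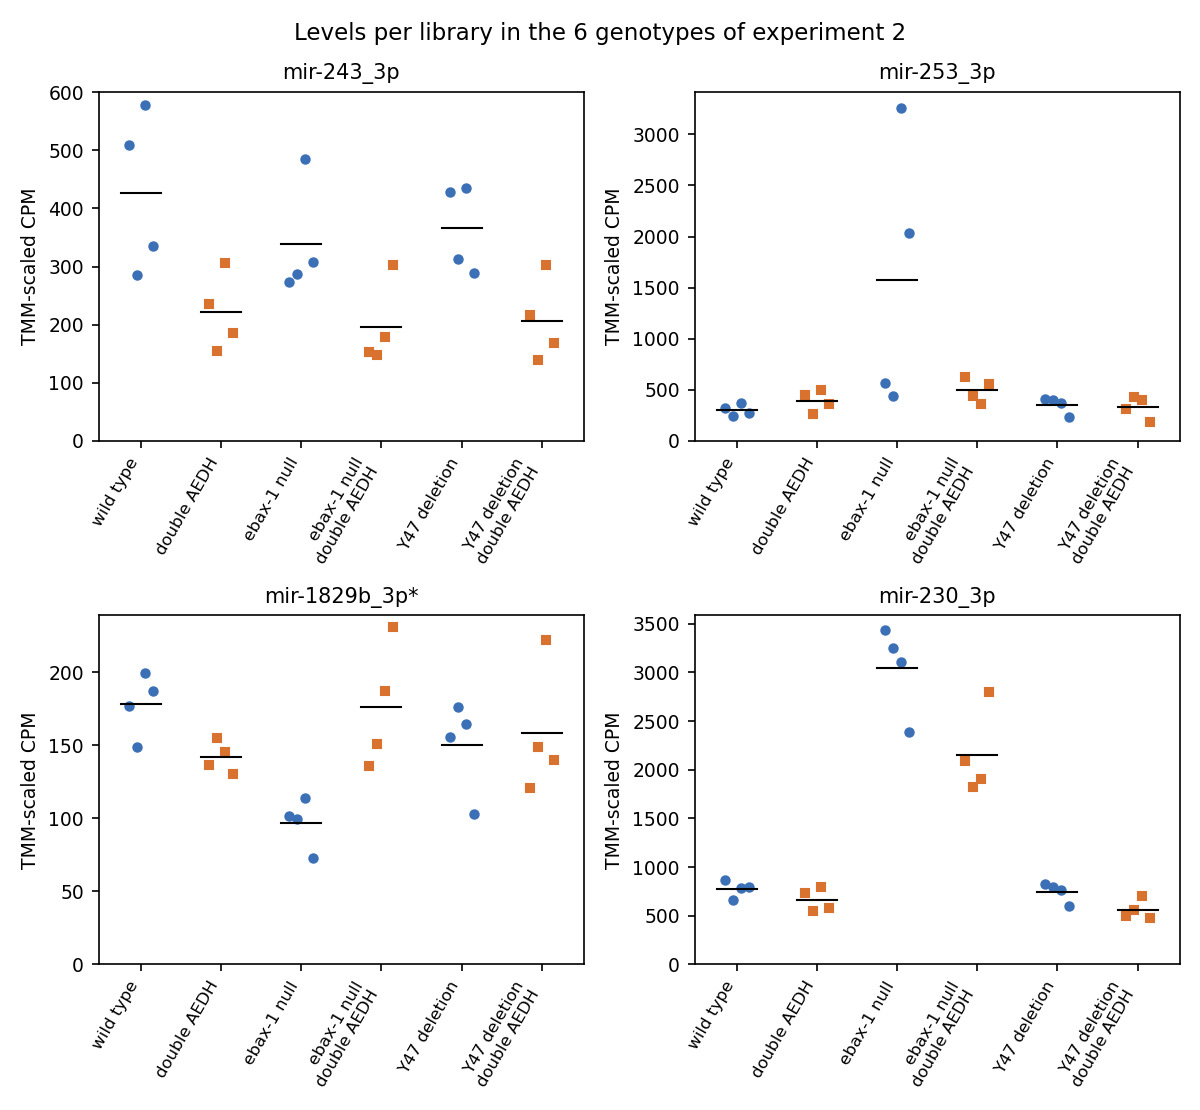
TMM-scaled CPM of 4 arms in each library of the 6 genotypes of experiment 2, with circles for groups without AEDH, squares for groups with double AEDH and bars for means of 4. mir-253_3p is high in 2 ebax-1 null libraries, mir-230_3p is higher in both ebax-1 null groups than in the other 4, and mir-1829b_3p* is lowest in ebax-1 null.

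The star-to-guide ratio moved toward the star in more hairpins than not. By limma on log2 ratios, 17 of 92 hairpins changed (18.5%), 14 toward the star (15.2%) and 3 toward the guide (3.26%). The median shift over all hairpins was 0.21 on the log2 scale, and 60 of the 92 lay above 0. The groups did not overlap in star share in 13 of the 17 and in 15 of all 92 (16.3%). Of the 17, 11 had a star arm called in the test of arms, 2 had a guide arm called, mir-253 and mir-1829a, and 4 had neither, mir-36, mir-40, mir-54 and mir-795. Without ebax-1 null replicates 3 and 4, 11 hairpins changed, 9 of them among the 17, and the median shift was 0.07. The count was 11, 10 and 10 without ebax-1 null replicate 1, 2 or 4.

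mir-237 had the largest shift. Its star share, the star arm's percentage of the hairpin's counts, was 0.601, 0.463, 0.430 and 0.478% in ebax-1 null and 1.59, 1.71, 1.36 and 1.65% with double AEDH. Every double AEDH library was more than double every ebax-1 null one. The shift was 1.70 ± 0.19 (SE; limma adjusted p = 2.08e-07). mir-230 followed, from 2.28, 2.36, 1.95 and 2.36% to 6.08, 7.06, 5.95 and 5.60% (1.52 ± 0.18, limma adjusted p = 3.43e-07). For mir-230 the star rose and the guide was lower, so both arms entered the shift.

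**Figure D3:**
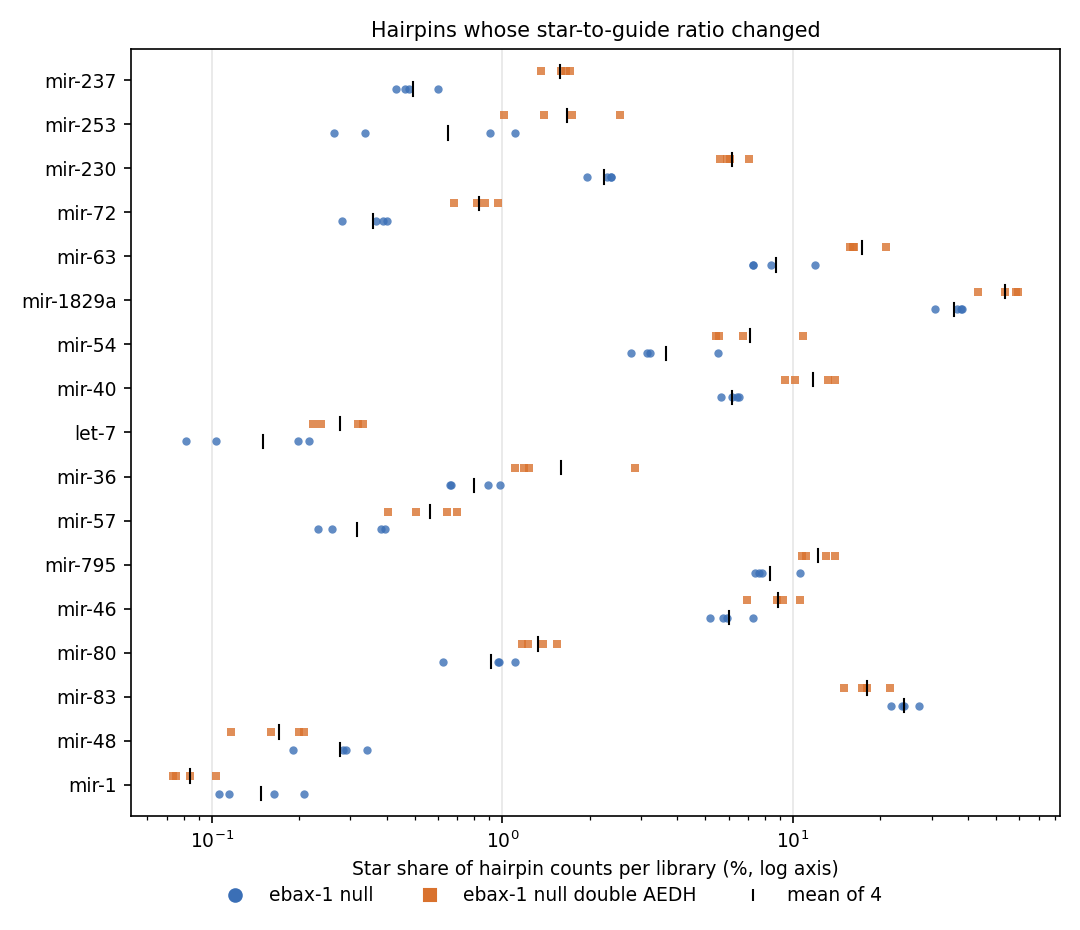
Star share of the hairpin's counts in each library for the 17 hairpins whose ratio changed, on a log axis, with circles for ebax-1 null, squares for ebax-1 null double AEDH and bars for means of 4. In 13 of the 17 the groups do not overlap, and mir-83, mir-48 and mir-1 at the bottom moved toward the guide.

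mir-72 moved from 0.401, 0.366, 0.281 and 0.390% star to 0.965, 0.815, 0.8695 and 0.683% (1.22 ± 0.23, limma adjusted p = 0.000551), and mir-63 from 8.39, 7.26, 11.9 and 7.31% to 16.2, 15.7, 16.1 and 20.9% (1.15 ± 0.24, limma adjusted p = 0.00158). Both pairs of groups were separate. mir-40, a member of the mir-35 family, moved from 6.19, 5.64, 6.41 and 6.50% to 13.9, 13.2, 10.2 and 9.42% (0.99 ± 0.20, limma adjusted p = 0.00144). In mir-40 neither arm was called, yet the share in ebax-1 null replicates 3 and 4 was close to that in replicates 1 and 2, although its guide level there was 7107 and 4742 CPM against 1709 and 1690 CPM.

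For mir-1829a the star held more than the guide in 3 of 4 double AEDH libraries and in no ebax-1 null library. Its share was 36.6, 37.8, 30.8 and 38.1% in ebax-1 null and 59.3, 58.7, 53.8 and 43.4% with double AEDH. The groups were separate, with double AEDH replicate 4 nearest (1.06 ± 0.28, limma adjusted p = 0.0110), and the adjusted p was 0.0696 without ebax-1 null replicates 3 and 4. Here the guide arm fell and the star arm, at 0.23, did not pass the test.

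Another 7 hairpins moved toward the star. mir-54, of the mir-51 family, moved from 3.66 ± 1.26% to 7.14 ± 2.55% and mir-36, of the mir-35 family, by 0.91, with its highest share, 2.85%, in double AEDH replicate 4. let-7 moved by 0.99, mir-57 by 0.84, mir-795 by 0.61, mir-46 by 0.60 and mir-80 by 0.56 on the log2 scale. The limma adjusted p of these 7 were 0.00849 to 0.0456. mir-57 alone among them kept its call with each library left out. The call of let-7 was lost without ebax-1 null replicate 3 or 4 or double AEDH replicate 3 or 4, those of mir-54 and mir-36 without ebax-1 null replicate 1, 2 or 4 or double AEDH replicate 4, and that of mir-46 without double AEDH replicate 4.

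The call of mir-795 was lost without ebax-1 null replicate 1, 2 or 4 or double AEDH replicate 1 or 2, and that of mir-80 without any 1 library except ebax-1 null replicate 3. Over these fits the highest adjusted p of the 7 hairpins was 0.214, for mir-80 without ebax-1 null replicate 4. The fits without ebax-1 null replicates 3 and 4 kept the calls of mir-54 and mir-795 but not those of let-7 (shift 0.40), mir-36 (0.94), mir-57 (0.51), mir-46 (0.48) and mir-80 (0.45).

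mir-253 shifted by 1.55 (limma adjusted p = 0.00763), with star shares of 1.10, 0.906, 0.335 and 0.263% against 1.01, 2.53, 1.39 and 1.73%. The low shares of ebax-1 null replicates 3 and 4 go with their high guide counts. Without these 2 libraries the shift was 0.66 (limma adjusted p = 0.265).

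The 3 hairpins that moved toward the guide were mir-1 by -0.78, mir-48 by -0.70 and mir-83 by -0.55 (limma adjusted p = 0.0237, 0.0340 and 0.0456). The star share of mir-1 was 0.207, 0.164, 0.106 and 0.114% in ebax-1 null and 0.0738, 0.0755, 0.0838 and 0.103% with double AEDH, separate by a narrow margin. None of the 3 kept its call with each library left out. mir-1 lost it without replicate 1 or 2 of either group (adjusted p up to 0.0920), mir-48 without ebax-1 null replicate 1, 2 or 4 or double AEDH replicate 3 or 4 (up to 0.107), and mir-83 without any ebax-1 null library or without double AEDH replicate 2, 3 or 4 (up to 0.121). Without ebax-1 null replicates 3 and 4 together the mir-83 shift was -0.53 (limma adjusted p = 0.134). mir-243, at 2.14 ± 0.69% and 4.14 ± 1.46% star, shifted by 0.96, with a 95% interval of 0.14 to 1.79, and was not called (limma adjusted p = 0.101).

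**Figure D4:**
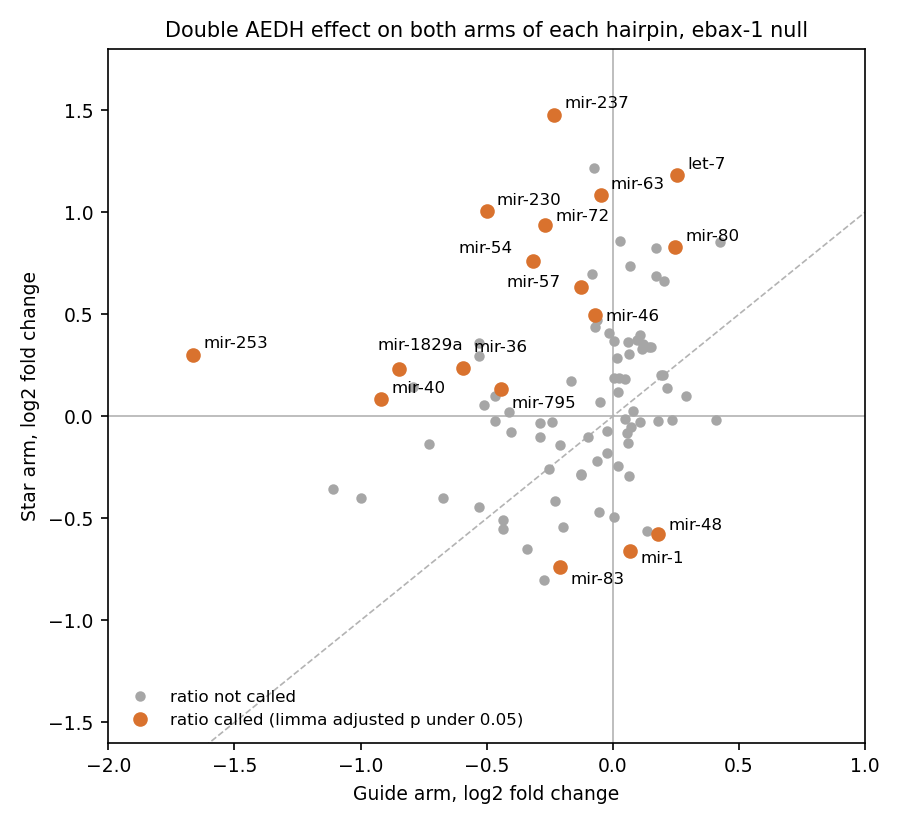
Log2 fold change of the guide arm (x) and of the star arm (y) for each hairpin with a ratio and both arms tested, ebax-1 null double AEDH against ebax-1 null. Points above the dashed diagonal moved toward the star. Named orange points are hairpins whose ratio changed: mir-237 lies high through its star at 1.48, and mir-253 lies far left through its guide at -1.66.

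Summed over the library, the shift was small. The median star-to-guide ratio, centred per hairpin, was 0.04, -0.11, -0.09 and -0.22 in ebax-1 null and 0.25, 0.18, 0.19 and 0.03 with double AEDH on the log2 scale. The lowest double AEDH library was just below the highest ebax-1 null one. The means differed by 0.25 (exact two-sided permutation test, p = 0.0571, 0.114 adjusted over the 2 values of this kind, where 4 against 4 libraries cannot go below 0.0286). All star arms together held 1.61 ± 0.173% of miRNA counts in ebax-1 null and 1.67 ± 0.147% with double AEDH (n = 4, exact two-sided permutation test, p = 0.6, adjusted p = 0.6). The most abundant star arm, mir-77_5p*, alone held 0.648% and 0.583% of counts. Left out with its hairpin, a choice made after seeing the data, the difference in star share was 0.122 percentage points (exact two-sided permutation test, p = 0.0571).

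In most families a single star arm rose. In the lin-4 family, lin-4 and mir-237, 1 of 2 star arms rose and neither guide changed. In the let-7 family, let-7, mir-48, mir-84, mir-241 and mir-795, 1 of 5 stars rose, 1 fell and 0 guides changed, with guide log2 fold changes of -0.44 to 0.25 and a median of 0.05. In the mir-51 and mir-58 families 1 star arm each rose, mir-51_3p* and mir-80_5p*, of 5 and 4 tested, and 0 of 6 and 0 of 5 guides passed the test in edgeR. In the mir-2 family mir-250_5p* was the 1 of 4 star arms that rose.

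Of the stars of mir-229 and mir-63 to mir-66, 1 of 5 rose, and in the mir-72 family 1 of 3. In the mir-44 family 1 of 4 guides, mir-247_3p, fell. In the mir-1829 family 2 of 3 stars rose, the near-equal pair, and 1 of 3 guides fell. Beside these counts the share of all arms that changed was 11.1%, so a list with 1 changed arm among about 10 is near the background. By role, 14 of all 95 tested star arms rose and 3 fell, and 2 of 131 guides rose and 6 fell. A single rising star in lists this short is thus not read as a family trait.

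The mir-35 family behaved differently in arms and in ratios. All 8 guides had log2 fold changes below 0, from -1.11 for mir-38_3p to -0.29, with a median of -0.56, and 0 passed the test. mir-38_3p, lowest by p, stood at 66.9, 72.7, 272 and 245 CPM and at 87.0, 96.2, 65.3 and 55.6 CPM, with ebax-1 null replicates 3 and 4 alone above the other 6 (edgeR adjusted p = 0.0738). Without them the median of the 8 guides was 0.25, with a range of -0.53 to 0.79. The star arms of the family had a median log2 fold change of 0.03 with all libraries and of 1.17 without those 2, where they ranged from 0.57 to 1.45. The ratios of all 8 hairpins lay above 0, with a median of 0.67, and 2 passed the test, mir-36 and mir-40. Without ebax-1 null replicates 3 and 4 all 8 still lay above 0, with a median of 0.77. In the pairs with wild type and with the Y47H10A.5 site deletion the median ratio shift of the 8 was 0.45 and 0.54.

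To see where the effect depended on EBAX-1, the difference between the AEDH effect in ebax-1 null and that in wild type was tested, with no library in common between the 2 pairs. In wild type 18 arms changed (7.96%) without a replicate block, 7 upward (3.10%) and 11 downward (4.87%), and 22 with it. All 18 had the same sign in ebax-1 null, where 65.0% of all tested arms shared sign. In both pairs 12 arms were called, each in 1 direction, which is 48% of the calls in ebax-1 null and 66.7% of those in wild type. Across the 226 arms, which are not independent replicates, Pearson's r was 0.58 and Spearman's rho 0.46.

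Of the 12 shared arms 6 rose, mir-57_3p*, mir-63_5p*, mir-72_3p*, mir-80_5p*, mir-230_5p and mir-237_3p*. The other 6 fell, mir-1_5p*, mir-48_3p*, mir-247_3p, mir-800_3p, mir-1829a_5p and mir-2953_3p. Log2 fold changes in ebax-1 null and in wild type were 1.08 and 1.08 for mir-63_5p*, 1.01 and 1.11 for mir-230_5p, 1.48 and 0.90 for mir-237_3p*, and -2.02 and -1.24 for mir-2953_3p. None of these 12 passed the interaction test between the backgrounds. With 4 libraries per group that test can miss a difference, so equal effects are not shown. Of these 12 arms, 10 were also called in the pair with the Y47H10A.5 site deletion. Without a replicate block 16 arms were called there (7.08%), 7 upward (3.10%) and 9 downward (3.98%).

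Of the 11 arms that fell in wild type, all 11 lay below 0 in ebax-1 null and 6 were called, with a median of -0.66 there against -0.88 in wild type. The 5 not called were mir-243_3p, mir-358_5p* (-0.55), mir-784_5p (-0.41), mir-54_3p (-0.31) and mir-58a_5p* (-0.24). The last of the 18 was mir-84_5p, of the let-7 family, which rose in wild type by 0.42 and stood at 0.05 in ebax-1 null (edgeR adjusted p = 0.896). None of these 6 passed the interaction test between the backgrounds, which again does not show equal effects.

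**Figure D5:**
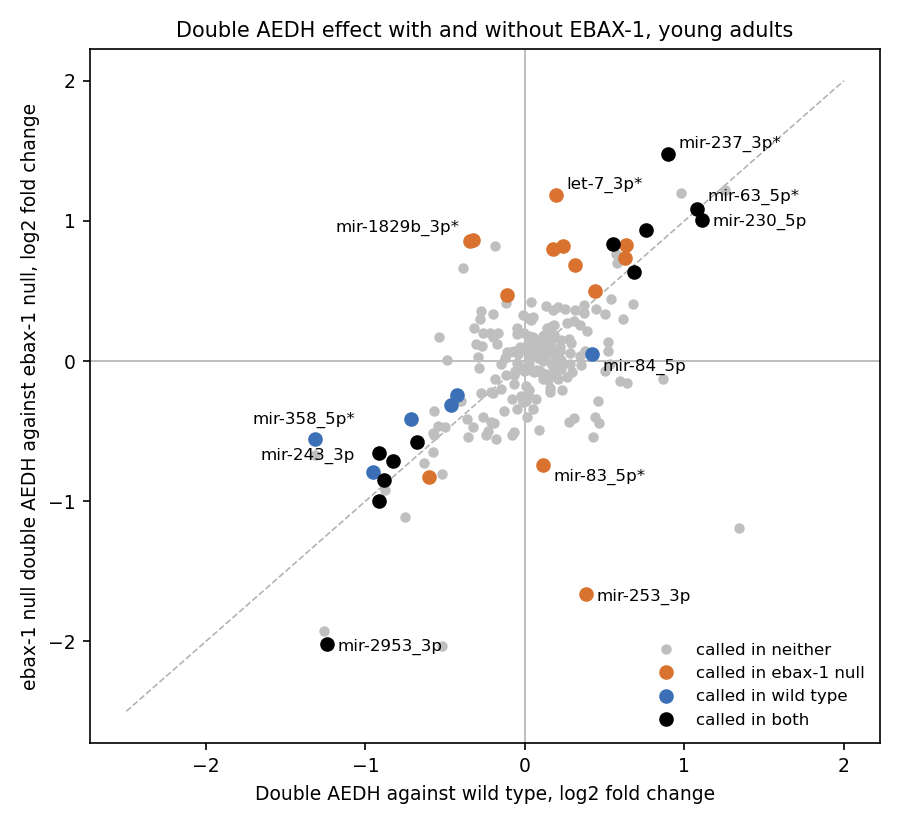
Log2 fold change of each of 226 arms with double AEDH in wild type (x) and in ebax-1 null (y), young adults of experiment 2, coloured by where the arm was called. The dashed line marks equal effects. The 12 arms called in both lie on the same side of 0 in both backgrounds, with mir-2953_3p and mir-237_3p* off the line at -2.02 against -1.24 and 1.48 against 0.90. mir-1829b_3p*, with mir-1829c_3p* on top of it, and mir-253_3p also lie away from the line.

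For the effect of double AEDH itself, 2 arms differed between the backgrounds (0.885%), both upward, the near-equal pair mir-1829b_3p* and mir-1829c_3p*. mir-1829b_3p* stood at 178 ± 21.7 CPM in wild type and 142 ± 10.8 CPM in double AEDH, against 97.0 ± 17.1 CPM in ebax-1 null and 176 ± 42.4 CPM in ebax-1 null double AEDH. The mean of this arm was lowest in ebax-1 null and near that of wild type in ebax-1 null double AEDH, whose libraries ran from 136 to 231 CPM. The other mir-1829 arms also had lower means in ebax-1 null than in wild type. Among them, mir-1829a_3p* stood at 77.0 against 127 CPM and mir-1829a_5p at 138 against 226 CPM. Ebax-1 null against wild type was not tested here. For mir-1829b_3p* the difference of the effects was 1.19 ± 0.24 (edgeR adjusted p = 0.0345), and it was 1.20 for mir-1829c_3p*.

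Both calls were lost without wild type replicate 3, double AEDH replicate 1 or 2, ebax-1 null replicate 2 or 4, or ebax-1 null double AEDH replicate 3 or 4 (adjusted p up to 0.150), at differences of 1.05 to 1.20. Both calls were also lost with spike-in scaling and without ebax-1 null replicates 3 and 4. For mir-1829b_3p* the differences were then 0.95 (edgeR adjusted p = 0.878) and 1.14 (edgeR adjusted p = 0.0540). For mir-1829c_3p* the difference without those replicates was 1.11 (edgeR adjusted p = 0.0540). Against the pair with the Y47H10A.5 site deletion, where the arm stood at 150 ± 32.4 and 158 ± 44.4 CPM, 0 arms differed by edgeR, with 11 at an unadjusted p under 0.05 and 2 by DESeq2.

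In ratios, 9 hairpins changed in wild type (9.78%) without a replicate block, 7 toward the star (7.61%) and 2 toward the guide (2.17%). With the block 11 did. All 9 were called in ebax-1 null, where they made up 52.9% of the 17 calls. They were mir-40, mir-54, mir-57, mir-63, mir-72, mir-230 and mir-237 toward the star and mir-1 and mir-48 toward the guide. The star share of mir-230 was 9.65 ± 0.56% in wild type and 21.6 ± 3.32% in double AEDH, against 2.24 ± 0.20% and 6.17 ± 0.63% in ebax-1 null. The starting share thus differed, while the log2 shifts were 1.35 and 1.52. The guide mir-230_3p stood at 777 ± 85.0 CPM in wild type and 3046 ± 461 CPM in ebax-1 null. For mir-237 the shares were 0.491 ± 0.0232% and 1.03 ± 0.215% in wild type, a shift of 1.05 against 1.70 in ebax-1 null, and the difference of 0.64 did not pass the interaction test (limma adjusted p = 0.653).

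One hairpin of 92 differed in its ratio effect between the backgrounds (1.09%), mir-253, by 2.17 (limma adjusted p = 0.0496). Its shift was 1.55 in ebax-1 null and -0.62 in wild type, where the star share was 3.97 ± 0.63% and 2.70 ± 0.86%. Without ebax-1 null replicates 3 and 4 the difference was 1.29 (limma adjusted p = 0.695), and the call was also lost without any 1 of 12 libraries, with values from 1.82 to 2.25. It was kept without double AEDH replicate 2, ebax-1 null replicate 1 or 2, or ebax-1 null double AEDH replicate 1. With the replicate number as a block the adjusted p was 0.0677 (limma). Against the site-deletion pair 0 hairpins differed by limma, with 3 at an unadjusted p under 0.05, and the mir-253 difference was 1.38 (adjusted p = 0.839).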

How the data were processed

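Small RNA libraries of 24 young adult samples in 6 groups were used. The authors deposited unnormalized estimated counts for each arm. Of these, 2.6% end in 0.5 and were rounded to whole numbers here. The submitters' processing notes name HTSeq 0.13.5, Bowtie2 2.4.4, cutadapt 3.4, SAMtools 1.13 and DESeq2. How reads matching several loci were shared is not given in the sources used here. Libraries were made by ligation with size selection on gels only after reverse transcription, per the labels' protocols. Arm positions come from the deposited annotation, MirGeneDB 2.0 on ce11 per the file headers, and gene context from WBcel235. The 10 spike-ins and 5 summary categories entered neither the library totals nor any test.

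The test of arms was edgeR's quasi-likelihood test (version 4.0.16, robust, TMM scaling, filterByExpr at a minimum count of 10) on all 24 libraries, which share 1 estimate of the spread, with Benjamini-Hochberg adjustment and a threshold of 0.05 (R 4.3.3). CPM are TMM-scaled. A ratio is the log2 of the star count plus 0.5 over the guide count plus 0.5. It was tested with limma (version 3.58.1, robust, with trend) where the mean of each arm reached 10 counts. The star was the annotated one in 132 hairpins and the arm with fewer reads in 6. Taking the arm with fewer counts in ebax-1 null throughout would change the star of 14 hairpins. DESeq2 1.42.0, other scalings, filters and left-out libraries were alternatives.

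The members, lists, tests and alternatives were chosen with earlier results of these data known. Every arm and hairpin past the threshold is named, with mir-243 and each arm or ratio past it in wild type or in an interaction. Lists are given by their counts. Labels do not say what a replicate number shares. Same-numbered libraries deviated together in the wild-type pair (correlations 0.32 to 0.58 over 226 arms) and the site-deletion pair (0.29 to 0.57). These numbers were therefore taken to pair the samples there, but not in the ebax-1 null pair (-0.53 to -0.16). Counts and overlaps given for those 2 pairs come from the fit without a replicate block unless stated. Seeds were not compared, as sequences were not used here. No 2 replicates matched within sampling noise (lowest chi-square over its degrees of freedom 128). Tested on simulated data for this comparison, arms changed by 0.8 on the log2 scale were recovered in 67.3% of cases and by 1.5 in 94.6%, with 225 arms, and ratios in 45.2% and 85.7%, with 91 hairpins.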

Additional observations from a re-analysis of the deposited data

Results flagged for a closer look

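The 108 groups of 4 libraries examined come from the same 8 libraries, mostly from called arms and ratios, and are not independent. The number with an outlying library can therefore not be judged against chance, which gives about 1 in 20 per group. In 11 of the 108 a single library lay apart from the other 3 by Dixon's test. In ebax-1 null double AEDH replicate 4 these were mir-237_3p* at 87.5 CPM (52.5 to 57.2 in the others), mir-1_5p* at 116 CPM (72.0 to 73.8), mir-83_5p* at 16.0 CPM (28.1 to 29.8), mir-67_5p* at 26.8 CPM (23.0 to 23.4), and the star shares of mir-63 at 20.9% and mir-36 at 2.85%. In ebax-1 null replicate 3 they were mir-243_3p at 485 CPM, the star shares of mir-54 at 5.53% and mir-795 at 10.6%, and the spike-in level at 10.7 per 100 miRNA counts. In ebax-1 null replicate 4 it was mir-67_5p* at 7.78 CPM.

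The effect of double AEDH differed between ebax-1 null and wild type by the interaction test for mir-1829b_3p* (1.19, log2) and mir-1829c_3p* (1.20), near-equal arms whose calls are 1 observation, and for the mir-253 star-to-guide ratio (2.17), which was 1.29 and not called without ebax-1 null replicates 3 and 4. What sets these libraries apart was not tested.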

How the results depend on the processing

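For arms in ebax-1 null, 25 calls became 11 with spike-in scaling, 12 with only the 2 groups compared in the fit and 15 to 30 with 1 library left out. DESeq2 gave 34 (16 up, 18 down) and no filter on low counts 18 (9 up, 9 down). The interaction with wild type gave 1 call with spike-in scaling and 0 to 3 with 1 library left out, and that with the site deletion gave 2 by DESeq2 and 0 or 1 with 1 library left out (1 without Y47 site deletion replicate 3). The wild-type pair gave 4 calls with spike-in scaling. Of the 25 arms 11 kept their call with each library left out in turn, and 5 under every alternative run: mir-237_3p*, mir-63_5p*, mir-2953_3p, mir-1829a_5p and mir-800_3p.

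For ratios, 17 calls became 6 with only the 2 groups in the fit, 11 without ebax-1 null replicates 3 and 4, and 10 to 15 with 1 library left out (11, 10 and 10 without ebax-1 null replicate 1, 2 or 4). Of the 17, 8 kept their call with each library left out in turn and 5 under every alternative run: mir-230, mir-237, mir-40, mir-63 and mir-72. The interaction with wild type gave 0 with a mean of at least 1 per arm, with the replicate block, with only the 4 groups, and without ebax-1 null replicates 3 and 4, and 0 or 1 with 1 library left out. The median ratio difference was 0.26 with 1 count added and 0.31 with a mean of at least 50, both at the smallest exact p, 0.0286, and 0.18 to 0.30 with 1 library left out, at that p without ebax-1 null replicate 1 or 3. The total star share differed by -0.00131 to 0.123 percentage points with 1 library left out.

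Signs turned for mir-84_5p (-0.17 with spike-ins, -0.0337 to 0.0856 with 1 library left out), for mir-243_5p (-0.0831 with spike-ins) and for the interaction of mir-243_3p (-0.0323 with spike-ins, -0.12 to 0.42 with 1 library left out). The cause of these changes was not tested. Replicate numbers did not pair the samples in the ebax-1 null pair, where no ebax-1 null library correlated best with its own number. In the wild-type pair, whose numbers pair the samples, 22 arms and 11 ratios were called with the replicate block, all 18 arms and 9 ratios called without it among them. That block gives all 24 libraries 1 effect per number. In the ebax-1 null pair 27 arms and 18 ratios were then called, mir-243_3p passed (-0.75, edgeR adjusted p = 0.0195), and the median ratio difference kept its exact p at the smallest that 4 pairs allow, 0.125. Of the arms and ratios named, the block changed no call but those of mir-243_3p and the mir-253 interaction. Counts near the floor of 3 limit the 50 arms that were not tested.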
